A study of Homo sapiens with 4 samples.

Results

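In all, 8 genes used as markers of stem-cell-like carcinoma cells were followed in clusters of A549 lung adenocarcinoma cells: SOX2, SOX4, SOX9, BMI1, ABCG2, LGR6, ALCAM and NT5E. They were taken by gene symbol from a table of 56389 transcripts of 16371 genes, and the values of a gene's listed transcripts were summed. The 8 genes were all present, with 21 listed transcripts, and all 8 passed the minimum mean of 1 FPKM over the 4 libraries that was set for testing. FPKM counts the sequenced fragments of a transcript relative to its length and to the size of the library.

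SOX2, SOX4 and SOX9 are transcription factors of the SOX family, which bind DNA through an HMG box and act in the upkeep of stem and progenitor cells, in the airway epithelium among other tissues. BMI1 is a RING finger subunit of Polycomb repressive complex 1, which places ubiquitin on histone H2A and holds genes silent. The other members sit at the cell surface: ABCG2 is an efflux pump for drugs and dyes, LGR6 a receptor for R-spondins, ALCAM (CD166) an adhesion protein of the immunoglobulin superfamily, and NT5E (CD73) the enzyme that converts extracellular AMP to adenosine.

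The study compared clusters of cells carrying a short hairpin RNA (shRNA) against DUSP23, a dual-specificity phosphatase (shDUSP23, 2 libraries), with clusters of control cells (shMock, 2 libraries, labelled as wild type). A549 is an established human cell line from a lung adenocarcinoma. By its title, the study addressed chemoresistance and stem-cell-like behaviour. How many hairpins were used, whether a line was 1 clone and what SUS stands for in the titles was not stated in the sources used here. The labels also do not say that replicates were separate cultures, so the p-values speak only to the spread between the libraries.

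DUSP23 itself was at 1.71 and 2.71 FPKM in the shDUSP23 libraries, against 29.96 and 35.9 FPKM in the shMock libraries (log2 fold change -3.64, SE 0.22, limma with Benjamini-Hochberg adjusted p = 3.12e-05). The libraries held 26997400 and 42236600 fragments in shDUSP23 and 21274600 and 25243800 in shMock, as recovered from the steps between low FPKM values. Pearson correlations of log2 values across 13691 tested genes were 0.969 between the shDUSP23 libraries, 0.986 between the shMock libraries and 0.884 to 0.910 across the groups. Of these genes 6202 (45.3%) were called changed in limma, 3166 (23.1%) higher and 3036 (22.2%) lower in shDUSP23. With each library scaled to the same FPKM sum (equal sums), 5279 of 13739 tested genes were higher and 1693 lower. The median log2 fold change of all genes moved to 0.34, while it was 0.027 on the values as deposited.

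Epithelial markers (EPCAM, KRT7, KRT8, KRT18, KRT19 and CDH1) were all listed, with summed levels of 2014 and 2085 FPKM in shDUSP23 and 2650 and 2561 FPKM in shMock. These sums were carried by KRT8, KRT18 and KRT7. EPCAM, KRT7, KRT18 and CDH1 fell in limma (4 of 6 tested, against 22.2% of all genes). With equal sums 1 of 6 fell, beside 1693 of all 13739 genes. Of 9 lung lineage and alveolar genes 4 were listed, and NKX2-1 and SFTPC had no row in the table used here. None of 6 endothelial genes had a row, and 4 of 8 fibroblast genes summed to 4.59 and 5.01 FPKM in shDUSP23 and 3.37 and 2.73 FPKM in shMock. Of 6 blood cell genes only CD14 and ITGAM had a row, summing to 8.17 and 6.39 FPKM in shDUSP23 and 6.63 and 10.2 FPKM in shMock. CD14 fell (-2.16, limma adjusted p = 0.000783) and ITGAM rose (1.39, limma adjusted p = 0.00220). Basal airway genes, 5 of 6 listed, summed to 38.7 and 37.6 FPKM in shDUSP23 and 8.71 and 8.43 FPKM in shMock. All 4 tested (KRT14, KRT15, NGFR and DLK2) rose in limma, against 23.1% of all genes. With the GC content and length correction described below 2 of 4 rose, beside 3105 of all 13563 genes. KRT14 carried most of the shDUSP23 sum, at 24.1 and 20.7 FPKM, against 1.58 and 2.28 FPKM in shMock. KRT5 had no row. TP63 was too low to be tested, at 0.914 and 0.552 FPKM in shDUSP23 and 0.428 and 0.576 FPKM in shMock, with overlap. The part of all these marker genes in the results below was not tested. In these bulk libraries fewer cells of a kind and less RNA per cell cannot be told apart.

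Of the 8 genes, 4 passed the test, against 45.3% of all genes tested. LGR6 and NT5E were higher in shDUSP23 (2 of 8, against 23.1% of all genes), and SOX2 and SOX4 were lower (2 of 8, against 22.2%). The values of the groups did not overlap in 6 of the 8 genes, against 75.5% of all genes tested, the exceptions being BMI1 and ALCAM. These shares lay near those of all genes. In the plot of levels by library, SOX2 in shDUSP23 and LGR6 in shMock lay lowest, with LGR6 listed at 0 in shMock 2, and ALCAM ranked first in every library.

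**Figure D1:**
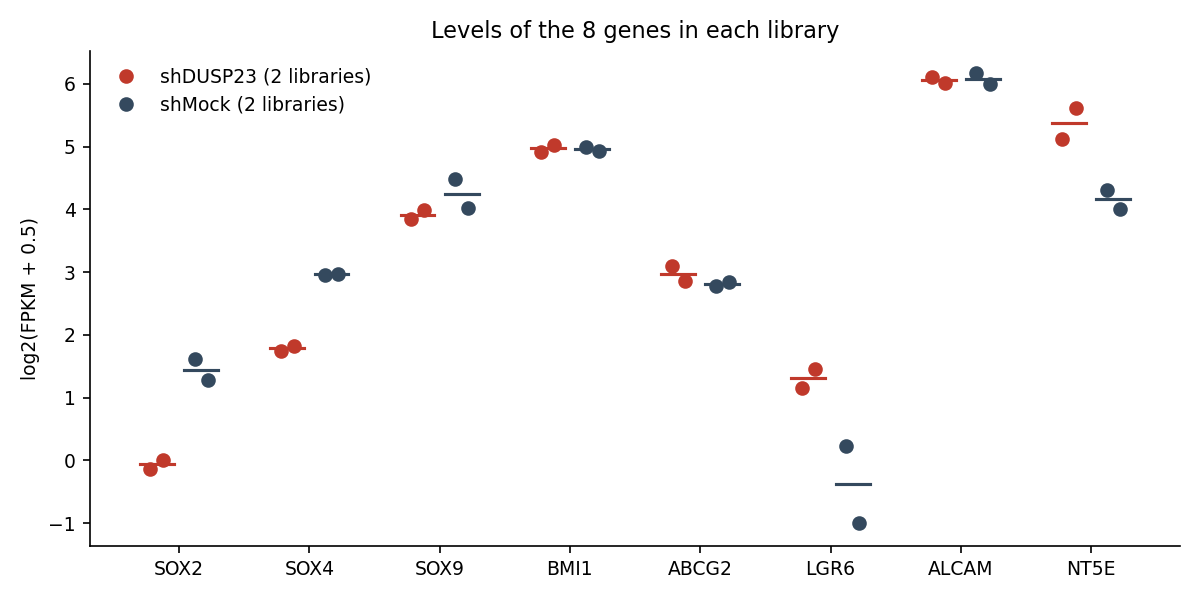
Levels of the 8 genes on the log2(FPKM + 0.5) scale; each point is 1 library, shDUSP23 left (red) and shMock right (dark) of each gene, and bars are the mean of the 2 libraries. SOX2 and SOX4 lie lower and LGR6 and NT5E higher in shDUSP23; LGR6 in shMock 2 is listed at 0 and so sits at the log2 of 0.5.

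The 3 SOX genes share their HMG box, and the stretch of coding sequence most alike between SOX2 and SOX4 is printed here. The SOX9 stretch is the one most like this SOX2 stretch. The stretches most alike between SOX9 and either other gene were not sought over the whole coding sequences. Each stretch is 150 bases long, from GENCODE release 29 on GRCh38, plus strand, and capitals mark bases that differ from SOX2.
SOX2 (chr3:181712482-181712631): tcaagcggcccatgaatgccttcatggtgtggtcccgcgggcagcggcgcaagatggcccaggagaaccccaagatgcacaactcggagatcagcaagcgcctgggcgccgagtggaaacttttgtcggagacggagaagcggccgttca
SOX4 (chr6:21594710-21594859): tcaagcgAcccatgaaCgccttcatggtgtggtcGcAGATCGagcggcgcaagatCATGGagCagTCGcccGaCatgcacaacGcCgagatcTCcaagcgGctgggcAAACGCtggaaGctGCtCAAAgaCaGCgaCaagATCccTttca
SOX9 (chr17:72121705-72121822 joined to 72122719-72122750): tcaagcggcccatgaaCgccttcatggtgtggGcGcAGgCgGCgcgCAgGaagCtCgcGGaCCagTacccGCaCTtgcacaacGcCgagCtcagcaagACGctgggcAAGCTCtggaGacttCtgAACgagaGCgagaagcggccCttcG
The SOX2 and SOX4 stretches shared 69.3% of their bases, SOX2 and SOX9 71.3%, and SOX4 and SOX9 75.3%. The longest identical run between 2 of the whole transcripts was 24 bases (SOX4 and SOX9), 18 bases for SOX2 and SOX9 and 17 bases for SOX2 and SOX4.

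SOX2, a factor of the pluripotent state and of the airway epithelium, was at 0.413 and 0.509 FPKM in shDUSP23, against 2.56 and 1.92 FPKM in shMock. The groups did not overlap, with shDUSP23 low in both libraries. These levels rested on 28 and 54 fragments in shDUSP23 and 137 and 122 in shMock, and the exact Poisson 95% intervals, which cover counting error only, were 0.274 to 0.597 and 0.382 to 0.664 FPKM in shDUSP23 and 2.15 to 3.03 and 1.60 to 2.30 FPKM in shMock. The shDUSP23 mean, 0.461 ± 0.0679 FPKM (SD, n = 2), was 0.205 times the shMock mean, 2.24 ± 0.452 FPKM (SD, n = 2). On the log2(FPKM + 0.5) scale, which understates the change of low genes, the fold change was -1.51 (SE 0.33, 95% interval -2.26 to -0.75, limma adjusted p = 0.00681). The call was lost without either shMock library. In such a fit the spread within a group comes from the shDUSP23 libraries alone, and fewer genes are called over the whole table. This applies to the other calls lost without a shMock library below. The log2 fold change was -1.34 without shMock 1 and -1.67 without shMock 2. SOX2 lies at chr3:181711925-181714436 (GRCh38, plus strand) inside the noncoding gene SOX2-OT, whose level is not given here.

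SOX4, a factor of progenitor cells and of many carcinomas, was at 2.86 and 3.02 FPKM in shDUSP23, against 7.28 and 7.36 FPKM in shMock. The spread within each group was small beside the gap between the groups. The fragments behind these were 376 and 622 in shDUSP23 and 754 and 905 in shMock. SOX4 fell in shDUSP23, with a log2 fold change of -1.18 (SE 0.20, 95% interval -1.65 to -0.72, limma adjusted p = 0.00206). SOX4 lies at chr6:21593751-21598619 (GRCh38, plus strand), where its start overlaps another gene of GENCODE 29 not analysed here.

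SOX9, a factor of distal lung progenitors and of cartilage, was at 13.9 and 15.3 FPKM in shDUSP23, against 21.7 and 15.8 FPKM in shMock. The groups did not overlap, but the lower shMock library lay just above the higher shDUSP23 library. The log2 fold change was -0.34 (SE 0.18, 95% interval -0.75 to 0.08, limma adjusted p = 0.158), so no call was made. With a GC content and length correction, fitted within every library, the value was -0.56 (limma adjusted p = 0.0157). With equal FPKM sums it was -0.012 (limma adjusted p = 0.966). SOX9 lies at chr17:72121020-72126416 (GRCh38, plus strand), inside the antisense gene SOX9-AS1, which was not analysed here.

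As the 2 factors that fell together, SOX2 and SOX4 are shown with the 250 bases before their RefSeq start (GRCh38.p14, plus strand); capitals mark CCAAT and GGGCGG on either strand.
SOX2 (chr3:181711675-181711924): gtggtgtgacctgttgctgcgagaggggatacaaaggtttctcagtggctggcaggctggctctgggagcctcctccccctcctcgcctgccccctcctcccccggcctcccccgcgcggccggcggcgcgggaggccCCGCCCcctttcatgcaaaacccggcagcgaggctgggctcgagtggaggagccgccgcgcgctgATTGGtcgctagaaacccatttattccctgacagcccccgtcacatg
SOX4 (chr6:21593501-21593750): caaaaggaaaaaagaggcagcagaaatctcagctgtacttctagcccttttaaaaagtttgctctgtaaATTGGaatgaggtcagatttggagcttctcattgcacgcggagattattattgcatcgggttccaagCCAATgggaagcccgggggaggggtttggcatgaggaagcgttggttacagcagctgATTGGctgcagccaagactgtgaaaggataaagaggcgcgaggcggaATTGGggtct
The SOX2 window held 1 CCAAT, 1 GGGCGG, 1 E-box (CANNTG) and 1 cAMP response element core (TGACG), and the SOX4 window 4 CCAAT and 2 E-boxes. Neither held TATAAA or the AP-1 letters TGANTCA. Motifs were searched on both strands and could overlap. Of 35116 windows of the same length, 32.0% held CCAAT, 42.6% GGGCGG, 61.8% CANNTG, 21.2% TGACG, 10.7% TATAAA and 6.57% TGANTCA, and 0.874% held 4 or more CCAAT. The SOX2 window was 68.8% G and C with 20 CpG, and the SOX4 window 48.8% with 8 CpG, against medians of 58% and 11 over all windows. A match is a description of the letters, not a bound site.

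Of 16 other SOX genes 7 were listed and 4 passed the filter, of which 1 rose and 1 fell (23.1% and 22.2% of all genes). Their median log2 fold change was -0.14, against 0.027 over all genes, and with the GC and length correction 1 rose and 2 fell. SOX21, a near relative of SOX2, fell, with 0.342 and 0.130 FPKM in shDUSP23, against 3.58 and 3.29 FPKM in shMock (log2 fold change -2.43, SE 0.33, limma adjusted p = 0.000715). SOX13, of another SOX group, rose, at 33.4 and 38.4 FPKM in shDUSP23 and 14.9 and 14.3 FPKM in shMock (1.26, limma adjusted p = 0.000269). SOX12, of the group of SOX4, was at 6.25 and 6.95 FPKM in shDUSP23, against 8.69 and 8.63 FPKM in shMock (-0.37, limma adjusted p = 0.119); with the GC and length correction it was -0.86 (adjusted p = 0.00154). SOX8 (1.64 and 2.51 FPKM in shDUSP23, 1.73 and 2.04 FPKM in shMock) did not pass.

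BMI1 was at 29.8 and 32.0 FPKM in shDUSP23, against 31.5 and 29.996 FPKM in shMock. The groups overlapped. The log2 fold change was 0.0059 (SE 0.13, 95% interval -0.28 to 0.29, limma adjusted p = 0.973), and its sign changed under several settings. BMI1 lies at chr10:22321099-22331484 (GRCh38, plus strand) and shares exons with the readthrough gene COMMD3-BMI1, which was at 0.157 and 4.99 FPKM in shDUSP23, against 2.98 and 3.82 FPKM in shMock. The longest listed transcript, ENST00000376663, was at 20.9 and 18.5 FPKM in shDUSP23, against 23.7 and 23.4 FPKM in shMock, with no overlap (-0.26, limma adjusted p = 0.327). This transcript held 92.8% and 89.5% of the gene's fragments in shDUSP23 and 95.003% and 94.6% in shMock, so short transcripts with few fragments made up the rest of the FPKM sum.

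All 21 listed genes of the forms of Polycomb repressive complex 1, some of which lack BMI1, were tested. Among them 4 rose and 1 fell, against 23.1% and 22.2% of all genes. The median log2 fold change was 0.20, against 0.027 over all genes. With equal sums 10 rose and 0 fell in limma (13 and 0 at an unadjusted p under 0.05), beside an all-gene median of 0.34. At that setting 5279 of all 13739 genes rose and 1693 fell. With the GC and length correction 2 rose and 2 fell, with a median of 0.096. By limma-voom on recovered fragments, over 19 of these genes, 6 rose and 2 fell. CBX7, a chromodomain subunit, rose to 3.57 and 4.94 FPKM in shDUSP23, against 1.33 and 1.53 FPKM in shMock (1.29, limma adjusted p = 0.00544; 0.0511 without shMock 1). KDM2B, which recruits a form of the complex to CpG islands, and CBX6 rose by 0.73 and 0.54, and PHC2 fell by 0.53 (limma adjusted p = 0.00702, 0.0220 and 0.0315). These calls were lost without a single library (adjusted p up to 0.0674 for KDM2B without shMock 2, up to 0.112 for CBX6 without shMock 1 and up to 0.168 for PHC2 without shMock 1). They were lost too with the GC and length correction for KDM2B (0.38, adjusted p = 0.0532) and CBX6 (0.053, adjusted p = 0.744), and with equal sums for PHC2 (-0.21, adjusted p = 0.359), all in limma. The E3 ligase subunits RING1 (12.6 and 13.4 FPKM in shDUSP23, 10.9 and 11.6 FPKM in shMock) and RNF2 (13.1 and 18.1 FPKM in shDUSP23, 14.3 and 13.3 FPKM in shMock) did not pass, though RING1 did with equal sums (0.52, limma adjusted p = 0.0280).

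In Polycomb repressive complex 2, 11 genes were listed and tested, with a median of -0.0094. Among them 1 rose and 2 fell, against 23.1% and 22.2% of all genes. With equal sums 4 rose and 2 fell, with a median of 0.32, beside 5279 higher and 1693 lower of all 13739 genes. The histone-binding subunits RBBP4 (25.04 and 22.5 FPKM in shDUSP23, 54.9 and 59.6 FPKM in shMock) and RBBP7 (52.8 and 41.2 FPKM in shDUSP23, 113 and 109 FPKM in shMock) fell, with log2 fold changes of -1.25 and -1.24 (limma adjusted p = 0.000199 and 0.000306). Both proteins also belong to other chromatin complexes. PHF1, a chromatin-binding accessory subunit, rose by 0.45 (limma adjusted p = 0.0318; up to 0.165 without shMock 1), but with the GC and length correction it was at 0.23 (limma adjusted p = 0.205). EZH2, the catalytic subunit, was at 17.4 and 18.6 FPKM in shDUSP23, against 25.2 and 21.4 FPKM in shMock (-0.36, limma adjusted p = 0.0734; 0.0260 by limma-voom on recovered fragments).

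Among the surface members, NT5E was at 34.2 and 48.6 FPKM in shDUSP23, against 19.4 and 15.6 FPKM in shMock. Both shDUSP23 libraries lay above both shMock libraries, and they differed from each other more than the shMock libraries did. NT5E averaged 41.4 ± 10.2 FPKM in shDUSP23 and 17.5 ± 2.68 FPKM in shMock (SD, n = 2 each), a ratio of 2.37. The log2 fold change was 1.21 (SE 0.19, 95% interval 0.77 to 1.64, limma adjusted p = 0.00142). NT5E had rank 2 among the members in the shDUSP23 libraries and rank 4 in the shMock libraries, where the ranges of NT5E and SOX9 overlapped. The gene lies at chr6:85449584-85495791 (GRCh38, plus strand).

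The main transcript, NT5E-201, rose and was at 31.2 and 40.8 FPKM in shDUSP23, against 12.8 and 12.7 FPKM in shMock (1.45, SE 0.18, limma adjusted p = 0.0387 over transcripts). It was the 1 member transcript called of 18 tested, against 4.15% of 37453 transcripts tested (1.7% higher and 2.45% lower in shDUSP23). With any 1 library left out 0 of 37453 transcripts passed limma (4939 to 11452 at an unadjusted p under 0.05), and the log2 fold change of NT5E-201 was 1.26 to 1.64. NT5E-201 held 91.4% and 83.8% of the gene's FPKM in shDUSP23 and 66.2% and 81.4% in shMock; NT5E-202 was at 2.43 and 3.57 FPKM in shDUSP23 and 2.75 and 1.79 FPKM in shMock, and NT5E-204 at 0 and 2.54 FPKM in shDUSP23 and 3.48 and 0.517 FPKM in shMock. NT5E-203 (0.520 and 1.752 FPKM in shDUSP23, 0.324 and 0.597 FPKM in shMock) lacks the coding exon printed here, which sets it apart from NT5E-201 (GENCODE 29, GRCh38, plus strand).
NT5E-201 exon (chr6:85490508-85490657): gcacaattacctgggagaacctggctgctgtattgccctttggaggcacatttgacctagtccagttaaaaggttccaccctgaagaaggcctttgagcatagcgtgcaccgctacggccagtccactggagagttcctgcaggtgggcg

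Of 20 genes of purine conversion and adenosine signalling 10 were listed and 8 tested. Among them 2 rose and 4 fell, against 23.1% and 22.2% of all genes. The median log2 fold change was -0.37, against 0.027 over all genes. In limma 2 rose and 1 fell with equal sums, beside 5279 higher and 1693 lower of all 13739 genes. With the GC and length correction 1 rose and 4 fell. The adenosine receptor gene ADORA2A rose to 8.94 and 10.8 FPKM in shDUSP23, against 1.33 and 1.66 FPKM in shMock (2.38, SE 0.23, limma adjusted p = 0.000155). The receptor gene ADORA2B did not pass, at 6.26 and 7.82 FPKM in shDUSP23 and 9.16 and 9.61 FPKM in shMock (-0.40, limma adjusted p = 0.110; -0.51 and 0.0478 with the GC and length correction, and 0.0497 without shDUSP23 2). ADK, which phosphorylates adenosine inside cells, fell to 16.5 and 10.05 FPKM in shDUSP23, against 23.7 and 27.95 FPKM in shMock (-0.97, limma adjusted p = 0.00845; 0.0896 without shMock 2). ENPP1, an ectonucleotidase, fell by 0.93 (limma adjusted p = 0.0302). The equilibrative nucleoside transporter SLC29A2 fell by 0.86 and another, SLC29A1, rose by 0.66 (limma adjusted p = 0.0142 and 0.0297). CD38, which acts on NAD outside cells, fell by 0.34 (limma adjusted p = 0.0482). Left out one at a time, the libraries took these calls away: the adjusted p reached 0.190 for ENPP1 without shMock 1, 0.137 for SLC29A2 and 0.221 for SLC29A1 without shMock 2, and 0.199 for CD38 without shMock 1. With equal sums ENPP1 was at -0.63, SLC29A2 at -0.56 and CD38 at -0.010 (limma adjusted p = 0.103, 0.0736 and 0.958), and with the GC and length correction SLC29A1 was at 0.46 (limma adjusted p = 0.0946).

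LGR6 was at 1.73 and 2.24 FPKM in shDUSP23, against 0.676 FPKM in shMock 1, and was listed at 0 in shMock 2. The groups did not overlap. The levels came from 159 and 322 fragments in shDUSP23 and 49 and 0 in shMock. The exact Poisson 95% interval of the count of 0 in shMock 2 reached 3.69 fragments, or 0.0429 FPKM. The log2 fold change was 1.69 (SE 0.46, 95% interval 0.64 to 2.74, limma adjusted p = 0.0176), a value that depends on the pseudocount: it was 2.89 with 0.1 FPKM and 1.20 with 1 FPKM. Without shMock 2 it was 1.07 (limma adjusted p = 0.141). LGR6 lies at chr1:202203736-202319781 (GRCh38, plus strand), and 1 transcript was listed.

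Of 18 genes of R-spondin and Wnt receptors and the ligases that remove them, 14 were listed and tested. Among them 1 rose and 7 fell, against 23.1% and 22.2% of all genes. The median was -0.36. With equal sums 4 rose and 3 fell, beside 5279 higher and 1693 lower of all 13739 genes. LGR5 had no row in the table used here. LGR4, the relative of LGR6, fell to 34.3 and 35.0 FPKM in shDUSP23, against 64.7 and 64.4 FPKM in shMock (-0.89, SE 0.12, limma adjusted p = 0.000587), the opposite direction to LGR6. The coreceptors LRP5 (6.73 and 8.77 FPKM in shDUSP23, 17.1 and 19.0 FPKM in shMock) and LRP6 (7.73 and 8.14 FPKM in shDUSP23, 17.6 and 15.0 FPKM in shMock) fell, with log2 fold changes of -1.18 and -0.99, and the Frizzled gene FZD7 rose by 1.17 (limma adjusted p = 0.00118, 0.00180 and 0.00454; FZD7 0.0534 without shMock 2). FZD3 and ZNRF3, a ligase that removes Frizzleds, fell, with log2 fold changes of -0.9998 and -0.69 (limma adjusted p = 0.0212 and 0.0213; up to 0.138 without shMock 2 and 0.135 without shMock 1). With equal sums they were at -0.72 and -0.38 (limma adjusted p = 0.0677 and 0.167). RSPO3, an R-spondin ligand, was at 58.5 and 51.7 FPKM in shDUSP23, against 58.7 and 47.1 FPKM in shMock, and did not pass (0.063, limma adjusted p = 0.744; 0.31 and 0.0415 with the GC and length correction and the replicate number as a block).

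ABCG2 was at 8.05 and 6.71 FPKM in shDUSP23, against 6.36 and 6.64 FPKM in shMock. The groups did not overlap, by a narrow margin. The log2 fold change was 0.17 (SE 0.19, 95% interval -0.26 to 0.60, limma adjusted p = 0.493), and on recovered fragments it was -0.12. The long transcript ENST00000237612 was at 6.53 and 3.83 FPKM in shDUSP23, against 5.65 and 5.45 FPKM in shMock. The short ENST00000505480 was at 1.52 and 2.89 FPKM in shDUSP23, against 0.702 and 1.18 FPKM in shMock. Neither passed the test. ABCG2 lies at chr4:88090269-88159024 (GRCh38, minus strand). ABCG1, a cholesterol efflux transporter of the same family, rose to 16.7 and 17.4 FPKM in shDUSP23, against 4.97 and 8.37 FPKM in shMock (1.33, limma adjusted p = 0.00222). The efflux pump gene ABCC1 did not pass, at 44.4 and 47.1 FPKM in shDUSP23 and 40.7 and 40.7 FPKM in shMock (0.17, limma adjusted p = 0.281; 0.50 and 0.0109 with equal sums). Of 6 genes listed for comparison, 2 were tested.

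ALCAM, the most abundant of the members, was at 68.6 and 64.3 FPKM in shDUSP23, against 71.3 and 63.2 FPKM in shMock. The groups overlapped. The log2 fold change was -0.016 (SE 0.12, 95% interval -0.29 to 0.26, limma adjusted p = 0.928) over 33003 fragments. With equal sums it was 0.32, beside the all-gene median of 0.34 (limma adjusted p = 0.0801). ALCAM lies at chr3:105366909-105576900 (GRCh38, plus strand). Its 2 main transcripts differ by a short coding exon, present in ALCAM-201 and absent from ALCAM-205 (GENCODE 29, GRCh38, plus strand).
ALCAM-201 exon (chr3:105552144-105552182): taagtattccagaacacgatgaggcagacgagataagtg
ALCAM-201 was at 36.4 and 40.7 FPKM in shDUSP23, against 45.1 and 40.2 FPKM in shMock. ALCAM-205 was at 24.8 and 20.8 FPKM in shDUSP23, against 22.1 and 15.3 FPKM in shMock. Neither transcript passed the test (limma adjusted p = 0.541 for ALCAM-201 and 0.473 for ALCAM-205). Of the sum of the 2 transcripts, ALCAM-205 made up 40.5% and 33.9% in shDUSP23 and 32.9% and 27.6% in shMock. These shares did not overlap, by a margin narrower than the spread within either group, and no test of them was run. ALCAM-207 varied from library to library, at 5.52 and 0.378 FPKM in shDUSP23 and 1.45 and 4.42 FPKM in shMock.

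**Figure D2:**
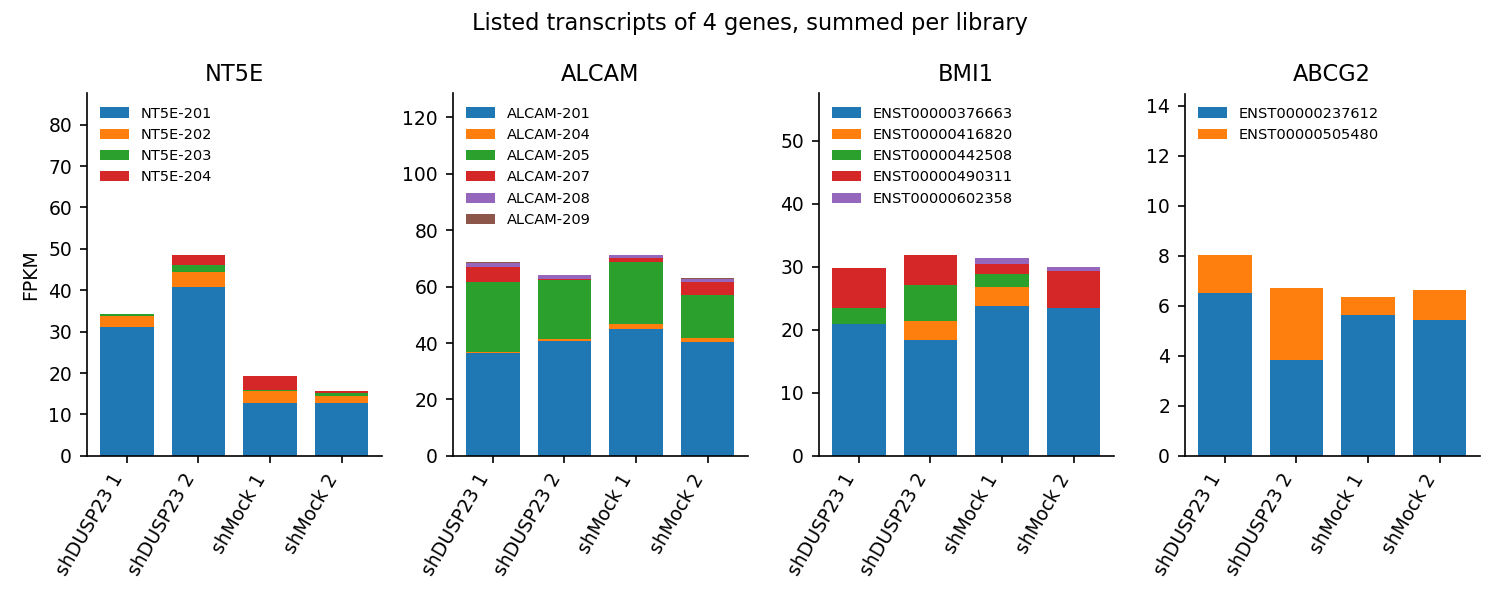
Listed transcripts of NT5E, ALCAM, BMI1 and ABCG2, stacked as FPKM in each library (shDUSP23 left, shMock right; each panel has its own axis). NT5E-201 holds most of NT5E and is higher in shDUSP23; the totals of ALCAM and BMI1 overlap between the groups, and those of ABCG2 lie close.

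Of 15 adhesion genes near ALCAM, its partners and its sheddase, 13 were listed and tested. Among them 6 rose and 3 fell, against 23.1% and 22.2% of all genes. The median was 0.32. With equal sums 8 rose and 1 fell, beside 5279 higher and 1693 lower of all 13739 genes. L1CAM, of the immunoglobulin superfamily like ALCAM, rose to 44.6 and 68.9 FPKM in shDUSP23, against 10.1 and 13.5 FPKM in shMock (2.20, SE 0.22, limma adjusted p = 0.000183). ICAM1 rose to 75.9 and 96.3 FPKM in shDUSP23, against 30.6 and 26.1 FPKM in shMock (1.58, limma adjusted p = 0.000156). CTNNA1, the alpha-catenin of cell junctions, and EZR, an actin linker, rose by 1.16 and 0.85, and CDH1 (E-cadherin) fell by 1.56 (limma adjusted p = 0.000147, 0.000684 and 0.000288). F11R, a junction protein, rose by 0.65 (limma adjusted p = 0.0327; up to 0.240 without shMock 2). BCAM, an immunoglobulin superfamily protein near ALCAM, and ADAM17, the sheddase of ALCAM, fell, with log2 fold changes of -0.62 and -0.43 (limma adjusted p = 0.00599 and 0.0449; up to 0.0604 and 0.235 without shMock 1). With equal sums they were at -0.30 and -0.0996 (limma adjusted p = 0.139 and 0.641). MCAM did not pass, at 6.09 and 6.74 FPKM in shDUSP23, against 4.59 and 4.07 FPKM in shMock (0.52, limma adjusted p = 0.0640; 0.82 and 0.0109 with equal sums).

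Of 28 other genes used as markers of stem-cell-like carcinoma cells, 21 were listed and 18 tested. Among them 5 rose and 8 fell, against 23.1% and 22.2% of all genes. The median was -0.49, against 0.027 over all genes. With equal sums 5 rose and 7 fell, beside 5279 higher and 1693 lower of all 13739 genes. ALDH1A1, an aldehyde dehydrogenase, fell to 616 and 673 FPKM in shDUSP23, against 2471 and 3207 FPKM in shMock (-2.13, SE 0.16, limma adjusted p = 5.13e-05), and ALDH3A1 fell by 1.45 (limma adjusted p = 0.000256). CD44, a hyaluronan receptor, rose to 720 and 684 FPKM in shDUSP23, against 380 and 370 FPKM in shMock (0.91, limma adjusted p = 0.000482), and KLF4, a factor of the pluripotent state, rose by 0.95 (limma adjusted p = 0.00134). HES1, a Notch target, fell by 1.06 (limma adjusted p = 0.00961; 0.104 without shMock 1). POU5F1 (OCT4), at 0.585 FPKM in shDUSP23 1, listed at 0 in shDUSP23 2, and 1.48 and 2.45 FPKM in shMock, fell by 1.71 (limma adjusted p = 0.0168; 0.199 without shMock 2), but it has near-identical copies, so its reads are uncertain.

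**Figure D3:**
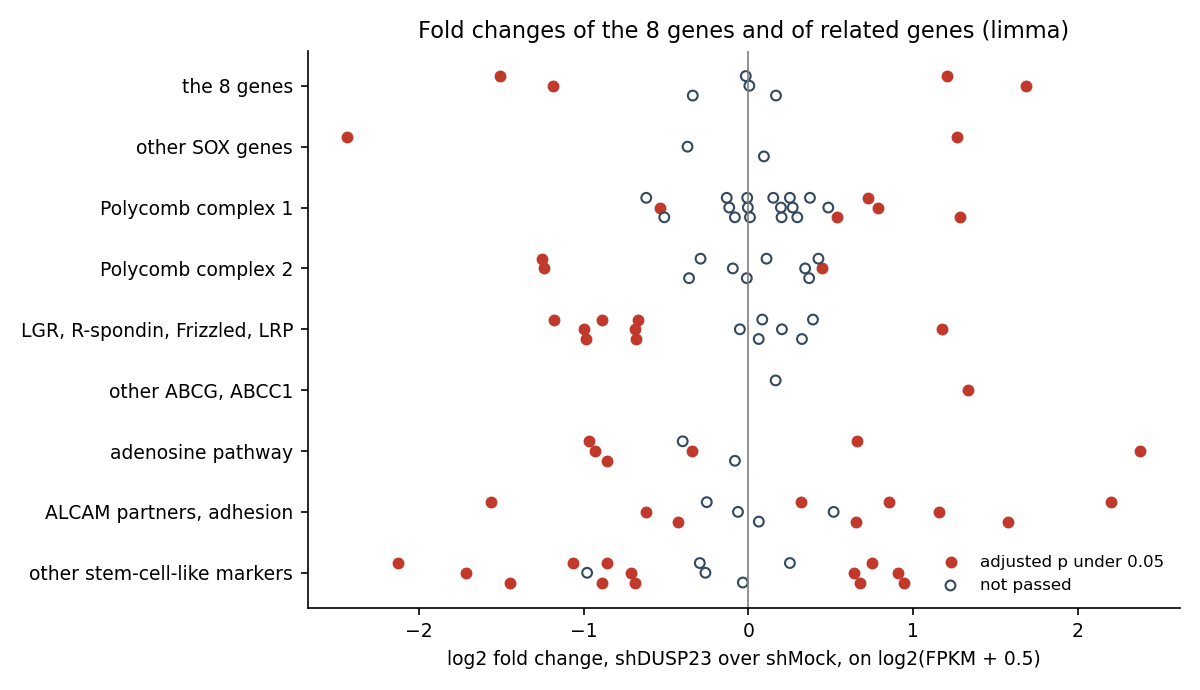
Log2 fold change, shDUSP23 over shMock on the log2(FPKM + 0.5) scale, of each tested gene: the 8 members in the first row and related genes by list below. Filled points passed limma at an adjusted p under 0.05, and open points did not; each list holds genes on both sides of 0 except the pair of tested transporter genes.

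By the smallest distance between centred profiles over the 4 libraries, the protein-coding genes outside the members closest to SOX2 were KIF14, PIP4K2B and MKI67 (distances 0.0694, 0.0724 and 0.132), and those closest to SOX4 were L3HYPDH, SET and NOC2L (0.0181, 0.0370 and 0.0374). SOX9 lay nearest to METTL18, IL27RA and SRSF12, BMI1 to CWF19L2, CASP2 and SEL1L3, and ABCG2 to STK36, KPNA5 and FHL2. LGR6 lay nearest to EFHD1, TMEM106A and AC034102.2, ALCAM to SIPA1L2, NONO and PSMD11, and NT5E to CCN5, FAM167B and AL669918.1. The nearest of LGR6 lay at 0.240, farther than those of any other member; 4 libraries give a coarse measure.

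**Figure D4:**
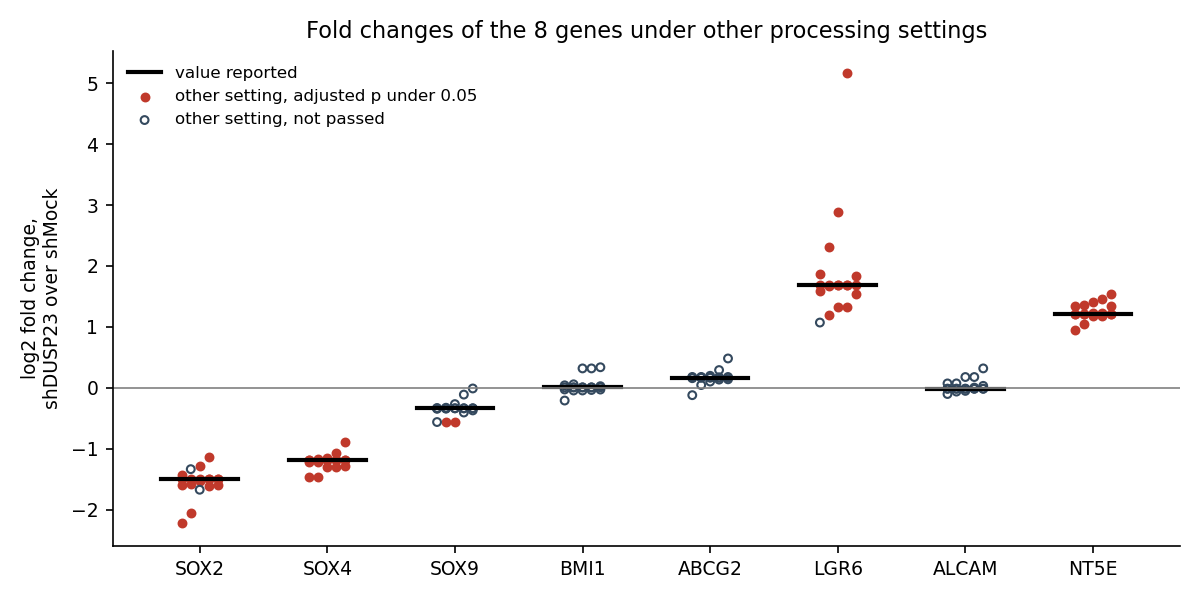
Log2 fold change of the 8 genes, shDUSP23 over shMock, as reported (black bar) and under other processing settings (points; filled where the adjusted p was under 0.05). SOX4 and NT5E passed under every setting shown, SOX2 lost the call without either shMock library and LGR6 without shMock 2, and SOX9 passed only with the GC and length correction.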

How the data were processed

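RNA was sequenced from shDUSP23 and shMock A549 clusters, 2 libraries each. The deposited values are FPKM per Ensembl transcript, made by the authors; Per the submitters' processing notes, STAR 2.7.1a, DESeq2 1.32.0 and the build GRCh38 were used. The tool behind the FPKM, its annotation release and the strandedness are not recorded in those notes or in the labels. The 8 members, the companion and marker lists and the tests were chosen with earlier results of these data known. Values were summed per gene ID, and log2(FPKM + 0.5) was tested with limma 3.58.1 (lmFit, eBayes with a trend) in R 4.3.3 over genes, and over transcripts, with a mean of at least 1 FPKM. Benjamini-Hochberg adjustment ran over all of them, two-sided, at 0.05. Named companions were the called genes of each list, up to 6 with the largest absolute fold change, and close partners by role; 1 gene so chosen is not reported here. Fragments were recovered from FPKM, length and library total: for 40741 transcripts with the coordinates of GENCODE 29, 99.96% of values were whole within 0.1 fragment, and all 21 member transcripts were whole. How the authors divided fragments between transcripts is not given. In simulated data of 13691 genes with 200 changed, limma recovered 14.9%, 86.6% and 100% at log2 fold changes of 0.5, 1 and 2. Of its 156 calls 22 were false, a larger share than the threshold of 0.05. Far more genes were called in the data (6202), so these rates need not hold there. With 2 libraries against 2 an exact permutation test cannot go below 0.333, so none was used. Python 3.11.15, numpy 2.4.6, pandas 2.3.3, scipy 1.17.1 and matplotlib 3.10.9 were used.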

Additional observations from a re-analysis of the deposited data

How the results depend on the processing

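Of 20 other settings, SOX4 and NT5E kept direction and call in all, with log2 fold changes of -1.46 to -0.88 and 0.96 to 1.54. SOX2 kept its direction in 19 (-2.22 to -1.14) and LGR6 in 19 (1.07 to 5.16, the highest with limma-voom on recovered fragments). The number of genes called, 6202, ranged from 3258 to 6391 with 1 library left out, being 3935 without shMock 1 and 3258 without shMock 2. The 4 members called ranged from 2 to 4 with 1 library left out, were 5 with the GC and length correction, with or without the block, where SOX9 is gained, and were 2 at a mean of at least 5 FPKM, where SOX2 and LGR6 are not tested. Leaving out 1 library, 0 of 37453 transcripts and 0 of 18 member transcripts passed limma, against 1554 and 1 with all; at an unadjusted p under 0.05 there were 4939 to 11452 transcripts and 2 to 4 member transcripts. The labels do not state whether libraries of the same replicate number are a pair, though their column names share a tag. The correlation of their deviations was 0.0528, which does not settle this. With the replicate block 6707 genes and 4 members were called, against 6202 and 4 without it. At the transcript level the block gave 0 transcripts and 0 member transcripts (8772 and 2 unadjusted). With the numbers crossed, a setting chosen after seeing the data, 5574 genes and 4 members were called.

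Signs changed, with no call, for BMI1 (-0.029 by median-ratio rescaling, -0.045 in protein-coding transcripts alone, -0.21 by voom, -0.037 summed with COMMD3-BMI1, added after seeing the data), ABCG2 (-0.12 by voom), ALCAM (0.32 with equal sums, 0.072 by quantile normalization, 0.18 with the GC and length correction and the same with the block, 0.0024 in protein-coding transcripts alone), SOX8 (-0.065 by quantile normalization, -0.35 with the correction and with the block), RING1 (-0.029 with the correction and with the block), RNF2 (-0.091 by voom), ABCC1 (-0.24 with the correction and with the block), SLC29A2 (0.0076 in protein-coding transcripts alone), and with equal sums ALCAM-201 (0.19), ENST00000237612 of ABCG2 (0.17), and ENST00000376663 and ENST00000416820 of BMI1 (0.072 and 0.11). With a library left out the ranges were -0.044 to 0.056 for BMI1, -0.10 to 0.071 for ALCAM, -0.15 to 0.34 for SOX8, -0.074 to 0.38 for RNF2, -0.094 to 0.22 for RSPO3, -0.48 to 0.22 for ENST00000237612, -1.82 to 0.96 for ALCAM-207, -1.41 to 1.40 for ENST00000416820, -0.084 to 1.51 for ENST00000490311 of BMI1 and -2.01 to 0.60 for NT5E-204. The causes were not tested. In all, 1231 comparisons of 73 named results gave 1099 with the same direction and call, 79 with the call lost, 14 with a call gained and 39 with the sign changed. SOX2 and LGR6 were at low levels. Their Poisson intervals, which cover counting error only, lay apart between the groups. For LGR6 those of the 2 shMock libraries lay apart from each other too.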
